A study of Sus scrofa with 12 samples.

Results

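The NR4A orphan nuclear receptors NR4A1, NR4A2 and NR4A3 were followed across the Semimembranosus muscle of 12 Italian Large White pigs. They were picked by symbol, as the 3 genes of the family among 25880 counted Ensembl genes, and they were picked with the contrast between fat and lean muscle already known, since NR4A3 went against the other early response genes there. Their group values are therefore given as a description without a test. The tests against one another, gene lists and library measures concern how the 3 genes varied among pigs of the same group, which did not enter that choice. Those with age were run over all 12 pigs, with within-group values beside them.

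The study asked which genes differ between muscle rich and poor in intramuscular fat (IMF). The high IMF group held 6 pigs and the low IMF group 6, with 3 females and 3 males labelled in each. The study describes the females as gilts and the males as barrows, that is castrated males. Their ages ran from 229 to 249 days and they fell in the same labelled weight class. Diet and housing were shared, and no experimental treatment or genetic change was applied. Muscle was taken at a commercial slaughterhouse after electrical stunning and frozen at once, so each animal gave 1 measurement at 1 moment. The pigs were slaughtered on several different days, and the day of each pig was not given in the sources used here. The part of the slaughter day in the levels below was not tested. Total counts ran from 131048805 to 178013997 per pig. Both groups carried abundant skeletal muscle transcripts: the 5 skeletal muscle markers with an identifier here, of 10 listed, summed to 34000 to 48680 CPM (counts scaled to library size, with TMM factors) in high IMF pigs and 36300 to 64390 CPM in low IMF pigs. Counts of Y-linked genes went against the labelled sex in 6 of the 12 libraries. These were 2 of high IMF (pigs 3 and 5) and 4 of low IMF (pigs 7, 8, 9 and 10), so values without those libraries are also given. Any value of the low IMF group alone rests on 4 such libraries of 6. A wrong sex label and an exchanged sample cannot be told apart here. If samples were exchanged, the IMF group of those libraries would be in doubt, and with it every group value below. In whole muscle, fewer cells of a type that make a transcript and less of it per cell cannot be told apart.

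NR4A receptors are transcription factors of the nuclear receptor superfamily for which no classical hormone is established. Their activity is set mainly by how much of the protein is made, and their genes are switched on within minutes by cyclic AMP, calcium, stretch or stress. In skeletal muscle they are known as targets of beta-adrenergic signalling and exercise, and NR4A1 and NR4A3 have been tied to glucose use, fatty acid oxidation and oxidative fibre traits. They bind DNA as single molecules at a site called NBRE, and NR4A1 and NR4A2 also as partners of retinoid X receptors.

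The family sits on 3 chromosomes of the Sscrofa11.1 assembly. NR4A2 (ENSSSCG00000015871, Nurr1) lies on the minus strand at chr15:63487051-63506249, where RefSeq places 9 transcripts. NR4A3 (ENSSSCG00000005385, Nor-1) lies on the plus strand at chr1:241569867-241611735 with 3 transcripts. NR4A1 (ENSSSCG00000031321, Nur77) lies on the plus strand at chr5:17403088-17407918, and RefSeq annotates that locus as a pseudogene without a transcript, so no exon length was available for it.

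Cyclic AMP acts on promoters through the CRE, to which CREB binds, and the stretches below are shown because they hold the full CRE found for NR4A2 and the short CREs found before the first start of NR4A3. Other short CREs lay nearer to a start, 19 bases before 1 of NR4A2 and 15 bases after the first of NR4A3. The NR4A2 stretch (chr15:63495419-63495448, minus strand) covers bases 76 to 47 before the transcript start at position 63495372, inside the first exon of a longer NR4A2 transcript, with the full CRE in capitals. The NR4A3 stretch (chr1:241569787-241569866, plus strand) covers the 80 bases before the start at position 241569867, with short CREs in capitals.
NR4A2: tgccctgctcgTGACGTCAggtcggaaata
NR4A3: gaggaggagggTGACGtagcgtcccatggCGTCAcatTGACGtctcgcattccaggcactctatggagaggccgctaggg

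In windows from 250 bases before to 50 after each RefSeq start, both strands were searched for the full CRE TGACGTCA, the short CRE TGACG, which also lies inside the full one, the NBRE AAAGGTCA and the TATA letters TATAAA. The full CRE was found in 3 of 9 NR4A2 windows, which overlap one another, and in 0 of 3 NR4A3 windows. Among the 19559 protein-coding genes whose window could be read, 2.25% held it. Those genes were read in 1 window each, at the outermost start, whereas the members had 1 window per transcript start. At its outermost start, position 63506249, NR4A2 held neither the full nor the short CRE. At its own, position 241569867, NR4A3 held the short CRE only. A short CRE was present in 6 of 9 NR4A2 windows and 2 of 3 NR4A3 windows, against 24.2% of all genes. No NBRE was found in the windows of either gene, against 0.992% of all genes, and the TATA letters were found in 1 window of each, against 10.9%. The window at the annotated start of NR4A1 held none of the 4 motifs, but no transcript start is annotated there.

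The sequences of the 3 genes were compared, using the longest RefSeq transcript or, for NR4A1, the locus, to see whether reads could fall on more than 1 of them. The longest exact stretch shared by NR4A1 and NR4A3 was 33 bases, that of NR4A2 and NR4A3 was 24 bases and that of NR4A1 and NR4A2 was 20 bases, all shorter than the 100-base reads. They are shown because the compared sequences shared no longer run, so that a whole read without errors within them could come from 1 of the 3 only. The other RefSeq transcripts and any exon junctions of NR4A1 were not compared.
NR4A1 and NR4A3: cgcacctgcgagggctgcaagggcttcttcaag
NR4A2 and NR4A3: gtgcgccgtgtgcggggacaacgc
NR4A1 and NR4A2: gccgtgtgcggggacaacgc

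NR4A3 was the member that stood apart between the groups. Its level was lowest at 67.19 CPM, 94.77 CPM at the median and highest at 161.6 CPM in high IMF pigs. In low IMF pigs the lowest was 80.18 CPM, the median 170.4 CPM and the highest 508.1 CPM. The 3 highest pigs of all were of low IMF, pig 7 at 508.1 CPM, pig 12 at 282.8 CPM and pig 11 at 196.5 CPM, whereas pig 10 of the same group lay below the high IMF median, so the groups overlapped. The low IMF pig was the higher in 29 of 36 pairings of a low with a high IMF pig.

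Group means of NR4A3 were 103.8 ± 33.81 CPM (SD, n = 6) in high IMF and 225.5 ± 154.2 CPM (SD, n = 6) in low IMF pigs. The edgeR fit gave a log2 fold change of low over high IMF (log2FC) of 1.12 with a standard error of 0.37, or 2.17-fold. Without pig 7 it was 0.71, and with the 6 libraries of matching sex label alone, 4 of high and 2 of low IMF, it was 1.15. These values were among those that led to the choice of the gene, and nothing further is read from them.

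NR4A1 differed little between the groups. The lowest, median and highest levels were 30.88, 40.22 and 67.32 CPM in high IMF pigs and 28.6, 47.98 and 65.96 CPM in low IMF pigs. The pigs of both groups were spread over the same range, and the lowest and highest of the 12 belonged to different groups. Means were 44.41 ± 12.87 CPM (SD, n = 6) and 47.26 ± 16.49 CPM (SD, n = 6), with a log2FC of 0.09 and a standard error of 0.24. With the libraries of matching sex label the log2FC of NR4A1 was -0.48 (standard error 0.32).

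NR4A2 was the most variable of the 3 genes among pigs. It ran from 7.215 CPM in pig 6 through a median of 24.0 CPM to 55.63 CPM in pig 3 within the high IMF group. In the low IMF group it ran from 8.342 CPM in pig 12 through 19.78 CPM to 51.1 CPM in pig 10. The ranges nearly coincided, and the spread within each group was wider than the distance between them. Means were 28.6 ± 17.97 CPM and 23.69 ± 15.99 CPM (SD, n = 6 each), with a log2FC of -0.27 and a standard error of 0.49. Leaving out pig 3 turned the sign to 0.03 and leaving out pig 10 moved it to -0.65.

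**Figure D1:**
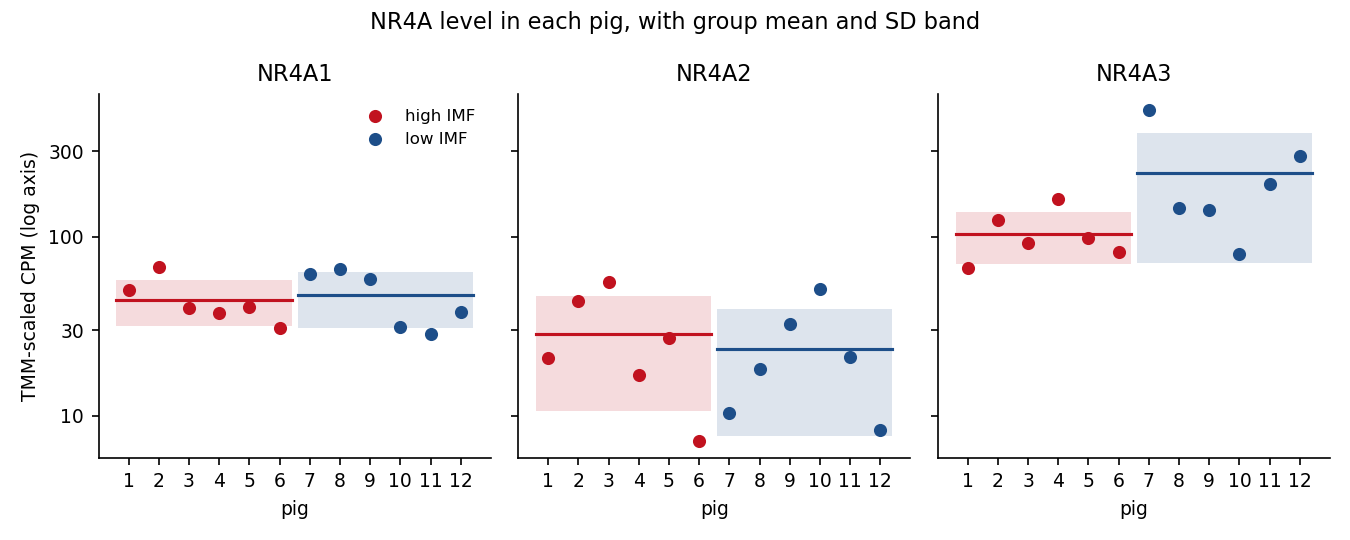
TMM-scaled CPM (log axis) of NR4A1, NR4A2 and NR4A3 in each of the 12 pigs, red for high IMF and blue for low IMF; lines are group means and bands the SD of 6 pigs. NR4A3 is highest in low IMF pigs 7, 12 and 11, NR4A2 spans 7.215 to 55.63 CPM with both groups mixed, and NR4A1 stays between 28.6 and 67.32 CPM.

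The highest pig exceeded the lowest by 2.35-fold for NR4A1, 7.71-fold for NR4A2 and 7.56-fold for NR4A3. The biological coefficient of variation that edgeR estimated after allowing for the group was 0.298 for NR4A1, 0.578 for NR4A2 and 0.446 for NR4A3. Against 0.332 for all genes in common, this placed NR4A2 above 91.1% of the 14262 tested genes, NR4A3 above 83.3% and NR4A1 above 63.8%. Counts behind these values ran from 910 for NR4A2 to 55114 for NR4A3, so counting error was small beside the spread between pigs.

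Per kilobase of RefSeq exons, NR4A3 was above NR4A2 in every pig. NR4A2 had a level of 1.19 to 9.14 CPM per kilobase in high IMF and 1.37 to 8.4 CPM per kilobase in low IMF pigs. NR4A3 had a level of 11.6 to 27.9 CPM per kilobase in high IMF and 13.9 to 87.8 CPM per kilobase in low IMF pigs. The ratio of these levels was lowest in pig 10 at 1.65 and highest in pig 7 at 51.2, both of the low IMF group, where its median was 9.0. In the high IMF group its median was 3.58 and it ran from 1.74 in pig 3 to 11.9 in pig 6. NR4A1 could not be placed on this scale.

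Across all genes no difference passed the study's thresholds in edgeR, which was not the test of the study. Of 14262 tested genes, 0 had an adjusted p (edgeR, Benjamini-Hochberg) of at most 0.05 with a log2FC of at least 0.58 in size, which is 0% called, and adjusted p-values began at 0.19. An unadjusted p of 0.05 or less was found for 1486 genes, or 10.4%, of which 767 (5.38%) were higher in low and 719 (5.04%) in high IMF pigs. The Wald test of DESeq2, the package the study used, called 57 genes at the same thresholds. The study itself reported genes that passed with DESeq2, among them CCN1 and PDE4D, which are described below.

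No pair of the 3 NR4A genes was shown to vary together within the groups. After the group means were subtracted from the log2 CPM, Pearson's r over the 12 pigs was 0.136 for NR4A1 and NR4A2 and 0.239 for NR4A1 and NR4A3. For NR4A2 and NR4A3 it was -0.49. None of the 3 pairs passed an exact two-sided permutation test within groups (518400 arrangements; p = 0.679, 0.534 and 0.114; adjusted over the 3 pairs 0.679, 0.679 and 0.341). Spearman's rho was 0.0979, 0.0909 and -0.427, with exact permutation p of 0.778, 0.804 and 0.19 (adjusted 0.804, 0.804 and 0.569).

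The opposite course of NR4A2 and NR4A3 was seen in the low IMF pigs. In the low IMF group r was -0.883 (exact permutation p = 0.0222, n = 6) and rho -0.886 (exact permutation p = 0.0333, n = 6), but after adjustment over the 6 tests of a pair within a group the p for r was 0.133. Pigs 7 and 12, with NR4A3 at 508.1 and 282.8 CPM, had NR4A2 at 10.44 and 8.342 CPM, whereas pig 10, with NR4A2 at 51.1 CPM, had NR4A3 at 80.18 CPM. In the high IMF group r was 0.161 (exact permutation p = 0.765, n = 6), and pig 6 was low for both genes, at 7.215 CPM for NR4A2 and 81.6 CPM for NR4A3. The difference between the groups in this correlation was not tested.

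Single pigs moved this value. Pigs 3 and 6, both of high IMF, lay farthest from the NR4A2 median. Without them r over both groups was -0.733 (exact permutation p = 0.0366, not adjusted over the 3 pairs, n = 10). Without pig 6 alone it was -0.707. Without pig 10 it was -0.297. Over the 6 libraries of matching sex label it was 0.103, which left 2 low IMF pigs.

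**Figure D2:**
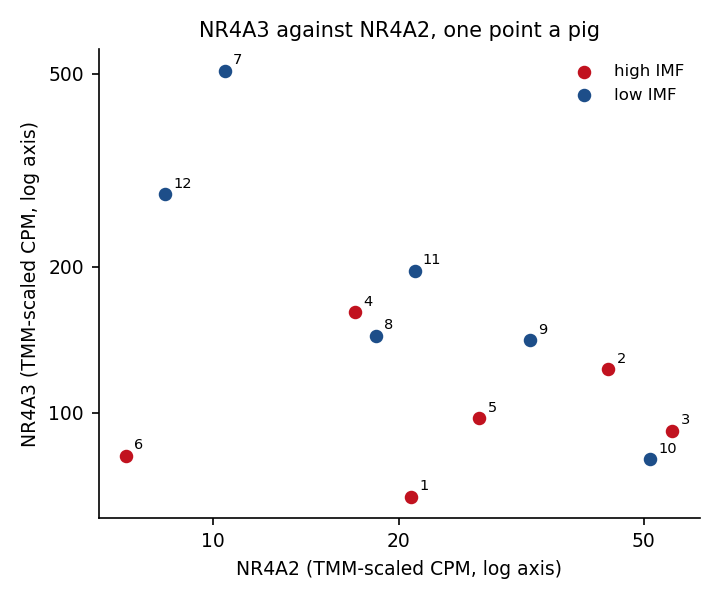
NR4A3 against NR4A2 in TMM-scaled CPM, both axes logarithmic, one numbered point a pig, red for high and blue for low IMF. The low IMF pigs run from high NR4A3 with low NR4A2 (pigs 7 and 12) to low NR4A3 with high NR4A2 (pig 10), while high IMF pig 6 is low in both.

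No relation with age was detected for any member over the range sampled. Over the 12 pigs, with no group means subtracted, Pearson's r with age in days was 0.072 for NR4A1, 0.0783 for NR4A2 and 0.012 for NR4A3. Spearman's rho was 0.138, 0.159 and -0.124. Permutation tests with 100000 resamples gave p = 0.821, 0.806 and 0.971 for r and p = 0.667, 0.62 and 0.698 for rho, adjusted over the 3 genes to 0.971 and 0.698 throughout. Within groups r was 0.09, 0.0478 and 0.181 (exact permutation p = 0.804, 0.887 and 0.661, adjusted over the 3 genes to 0.887 throughout). Without pigs 9 and 12, the farthest from the median age, r was 0.154, -0.134 and 0.353. For NR4A3 the sign rested on single pigs, since r was -0.572 without pig 7 and -0.716 over the libraries of matching sex label.

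Early response genes are transcribed within minutes of a stimulus without new protein synthesis, and the NR4A genes are counted among them. Of 29 other such genes listed, 26 had an identifier and 25 were tested, JUNB having 0 counts in every pig. At an unadjusted p of 0.05 or less 12 were higher in high IMF pigs, where the share over all genes was 5.04%, and 1 was higher in low IMF pigs, where it was 5.38%. The median log2FC of the 25 was -0.61 against -0.01 over all genes, and 22 lay below 0. NR4A3 was chosen for going against this list, so the contrast supports nothing about it. With the libraries of matching sex label 11 were higher in high and 1 in low IMF pigs (2.19% and 1.86% of all genes), and with the GC slope described further on as a covariate 6 and 1 (2.09% and 2.05%).

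The largest differences in size were those of the zinc finger factors EGR1 (log2FC -1.57, standard error 0.62), EGR3 (-1.44, 0.50) and EGR2 (-1.02, 0.33), the stress protein GADD45B (-1.20, 0.42), the AP-1 subunit FOS (-1.19, 0.51) and the matrix protein CCN1 (-1.15, 0.27). Without pig 6 the log2FC of EGR1 was -0.69 and that of EGR2 -0.64. FOSL2, another AP-1 subunit, was the 1 gene higher in low IMF pigs (log2FC 0.56, standard error 0.14), and none of the genes named here passed the adjusted threshold of edgeR.

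Within the groups the early response genes also ran against NR4A3 more often than with it. Of the 25, 21 had a within-group r below 0 with NR4A3 and 4 above 0, with a median of -0.347 against -0.01 over all genes. The lowest were the mRNA decay factor ZFP36 at -0.759, FOS at -0.695 and IER5 at -0.644. FOS was at 44.1, 90.4 and 97.6 CPM in pigs 12, 7 and 11, the 3 pigs with the most NR4A3. In the other low IMF pigs, 9, 10 and 8, FOS was at 152, 386 and 452 CPM. The r of FOS with NR4A3 was -0.528 in the high and -0.739 in the low IMF group. The mean log2 CPM of the list had an r of -0.472 with NR4A3 (exact permutation p = 0.131; adjusted over 33 relations 0.478) and a rho of -0.643 (exact permutation p = 0.0309; adjusted 0.204). Without pigs 6 and 12, the farthest from the list's median, r was -0.476.

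With NR4A1 and NR4A2 the list was split. Of the 25 early response genes, 11 had an r above 0 with NR4A1 (median -0.02) and 11 with NR4A2 (median -0.125). EGR1 had an r of -0.616 with NR4A2. Without pig 6, in which EGR1 was at 234 CPM and NR4A2 at its lowest, it was -0.368, and without pig 12 it was -0.886. Without both pigs it was -0.797. It was -0.907 in the high and -0.118 in the low IMF group. KLF2, a Kruppel-like factor, had the highest r of the list with NR4A1, at 0.722.

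The cyclic AMP arm carries the beta-adrenergic signal to NR4A promoters. Of 21 listed genes, 18 had an identifier and 16 were tested. At an unadjusted p of 0.05 or less 6 were higher in low IMF pigs, against 5.38% over all genes, and 1 was higher in high IMF pigs, against 5.04%. The 16 genes had a median log2FC of 0.35, against -0.01 over all genes. With the libraries of matching sex label 2 were higher in low IMF pigs (1.86% of all genes) and 0 in high, and the list median was 0.04. With the GC slope as a covariate 1 (2.05%) and 0 were, and the median was 0.145.

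PPARGC1A, the coactivator of mitochondrial genes and a CREB target, had the largest log2FC of that arm, 0.92 with a standard error of 0.35. PRKAR1A, a regulatory subunit of protein kinase A, had -0.81 (0.28). The phosphodiesterase PDE4D, which breaks down cyclic AMP, had 0.67 (0.14), and its lowest low IMF pig, at 135 CPM, was above its highest high IMF pig, at 126 CPM, as for 0.259% of all genes (0.400% had every high IMF pig above every low IMF pig). The coactivator CREBBP had 0.63 (0.20). Their adjusted p-values by edgeR were 0.434, 0.427, 0.19 and 0.42.

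PPARGC1A and NR4A3 had near-parallel levels. PPARGC1A was at 392, 279 and 215 CPM in pigs 7, 12 and 11, the same 3 pigs in the same order as for NR4A3, and at 55.8 and 70.8 CPM in pigs 1 and 10, which were lowest for NR4A3 as well. The within-group r was 0.898, the third highest of the 11834 named genes ranked, and it stayed between 0.837 and 0.929 when any 1 pig was left out. It was 0.646 in the high IMF group, 0.974 in the low IMF group and 0.744 over the libraries of matching sex label.

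**Figure D3:**
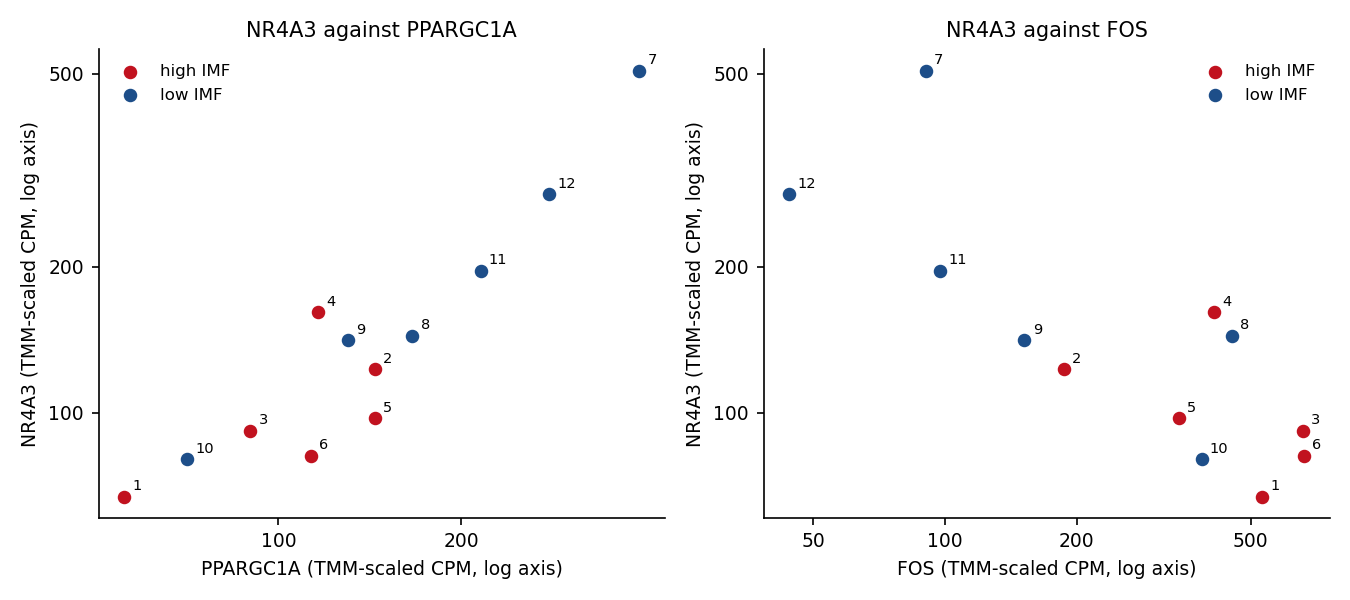
NR4A3 against PPARGC1A (left) and against FOS (right) in TMM-scaled CPM, all axes logarithmic, one numbered point a pig, red for high and blue for low IMF. Pigs 7, 12 and 11 are highest for NR4A3 and PPARGC1A and among the 3 lowest for FOS.

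The genes most like NR4A3 by within-group r of log2 CPM over 12 pigs were ARRDC3, an arrestin-domain protein (0.956), and HEY2, a Notch target repressor (0.914). PPARGC1A followed, then RNASEK, a ribonuclease (0.87), and CA4, a membrane carbonic anhydrase (0.864). ARRDC3 itself did not follow the group contrast, with a log2FC of -0.07 and a standard error of 0.19, whereas the log2FC of RNASEK was 0.66 (0.25). The lowest r were those of the mitochondrial factor MTERF2 (-0.89), FAM110D (-0.885) and the neurotrophin BDNF (-0.884), whose level was at most 1.07 CPM in any pig. Of 14259 genes, 88 (0.617%) had an r of at least 0.8 in size with NR4A3.

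NR4A2 had another set. The highest r were those of the lipid transfer protein BLTP1 (0.935), the homeobox factor MEOX1 (0.912), MORN5 (0.895), C2orf69 (0.868) and the ubiquitin ligase adaptor KBTBD6 (0.862), of which MORN5 was at most 0.153 CPM in any pig. The lowest were the class II antigen gene SLA-DQB1 (-0.92), the membrane skeleton protein EPB41L3 (-0.877) and the decapping enzyme DXO (-0.874). Fewer genes reached 0.8 in size with NR4A2, 53 (0.372%).

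NR4A1 had the most such genes, 295 (2.07%). SRP68 of the signal recognition particle (0.946), NPRL3 of the GATOR complex (0.942), the MADS-box factor MEF2D (0.921) and the cadherin CELSR2 (0.916) were among the genes with the highest r. TMX3, a thiol oxidoreductase of the endoplasmic reticulum (-0.935), the RNA methyltransferase METTL8 (-0.922) and TM2D1 (-0.912) had the lowest.

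The base composition of the transcripts moved with NR4A1. For each pig the slope of log2 CPM, centred on each gene's mean, was taken against GC content over 11038 genes, 93.2% of the tested genes with a symbol, and the NR4A genes were left out. This GC slope ran from -0.181 to 0.106 log2 units per 10 points of GC in high IMF and from -0.0406 to 0.136 in low IMF pigs. NR4A1, at 60.9% GC over its locus, had a within-group r of 0.821 with it (exact permutation p = 0.000156) and a rho of 0.755 (exact permutation p = 0.000928). Over the 12 relations of 4 library measures with 3 genes the adjusted p was 0.00187 for r and 0.0111 for rho. Without pigs 3 and 6, the farthest from the median slope, r was 0.868, and it was 0.886 in the high IMF group, 0.951 in the low IMF group and 0.974 over the libraries of matching sex label.

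NR4A2 and NR4A3, at 50.8% and 47.3% GC in their longest transcripts, had an r of 0.0847 and 0.0804 with the GC slope, with adjusted exact permutation p of 0.889 each, and a rho of -0.0629 and 0.028, with 0.936 each. With the slope as a covariate in edgeR the log2FC of NR4A1 was -0.39 (standard error 0.19), that of NR4A2 -0.23 (0.58) and that of NR4A3 0.99 (0.50). Genes most like NR4A1 had high GC (SRP68 56.2%, NPRL3 64.0%, MEF2D 57.9% and CELSR2 62.8%) and those most unlike it low GC (TMX3 36.7%, METTL8 40.7% and TM2D1 37.8%), beside a median of 50.9%. Once the slope was taken out of both, r with NR4A1 was 0.833 for SRP68 and 0.774 for MEF2D. The part of base composition in the levels of NR4A1 was not tested further.

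The total count, the TMM factor and the share of counts in the most counted gene had no within-group relation with an NR4A gene that passed. Over both groups the r were at most 0.535 in size, with an adjusted exact permutation p of at least 0.482, and the rho at most 0.566, with at least 0.396. For the total count and NR4A1, however, r was 0.837 in the high and -0.954 in the low IMF group, and -0.439 over both. That difference between the groups was not tested.

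**Figure D4:**
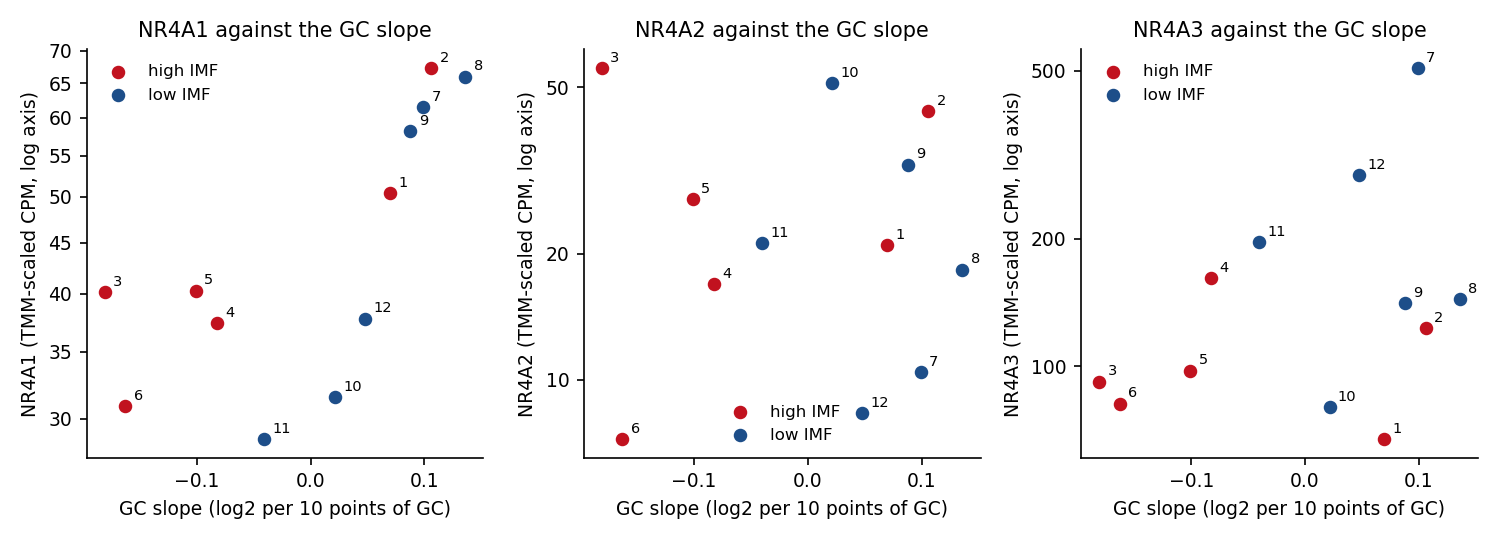
Level of NR4A1, NR4A2 and NR4A3 (TMM-scaled CPM, log axis) against the GC slope of each library (log2 units per 10 points of GC), one numbered point a pig, red for high and blue for low IMF. NR4A1 rises with the slope in each group (within-group r 0.821), NR4A2 and NR4A3 do not (0.0847 and 0.0804).

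Calcium reaches NR4A1 through calmodulin kinases, class IIa deacetylases and MEF2 factors. All 17 listed genes of this arm were tested. At an unadjusted p of 0.05 or less 3 were higher in low IMF pigs, MEF2A (log2FC 0.50, standard error 0.21), MEF2D (0.44, 0.14) and CAMK2B (0.31, 0.13), against 5.38% of all genes, and 0 were higher in high IMF pigs, against 5.04%. The kinase CAMK4, at a mean of 0.250 and 0.163 CPM, had -0.61 (0.32; -0.34 without pig 6) and the calcineurin target NFATC1 0.44 (0.22), and the median log2FC of the list was 0.06. With the libraries of matching sex label 0 were higher in low IMF pigs (1.86% of all genes), and with the GC slope as a covariate 1 (2.05%).

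Within groups MEF2D (0.921), CAMK2B (0.872) and the deacetylase HDAC4 (0.813) had a high r with NR4A1, but the r of 9 of the 17 genes was above 0. The list mean had an r of 0.184 with NR4A1 (exact permutation p = 0.585; adjusted 0.878) and a rho of 0.259 (exact permutation p = 0.447; adjusted 0.82). After the GC slope was taken out, r was 0.784 for CAMK2B and 0.426 for HDAC4. With NR4A2 15 of the 17 genes had an r above 0 (median 0.322) and with NR4A3 4 of 17 (median -0.283), a difference that was not tested. For the list mean and NR4A2 r was 0.499 (exact permutation p = 0.116; adjusted 0.478) and rho 0.629 (exact permutation p = 0.0422; adjusted 0.232), and r without pigs 4 and 9 was 0.426. For the list mean and NR4A3 r was -0.629 (exact permutation p = 0.0474; adjusted 0.313) and rho -0.538 (exact permutation p = 0.103; adjusted 0.426), and r without pigs 4 and 9 was -0.55. It was -0.0612 in the high and -0.875 in the low IMF group, and -0.262 over the libraries of matching sex label.

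The cyclic AMP list had a mean with an r of 0.753 with NR4A1 (exact permutation p = 0.0144; adjusted 0.158) and a rho of 0.741 (exact permutation p = 0.0155; adjusted 0.177), and r was 0.621 without pigs 8 and 9. CREBBP (0.901) and the CREB coactivator CRTC2 (0.82) had the highest r with NR4A1, and with the GC slope taken out these were 0.684 and 0.308. The clock gene PER1 had the highest r of the list with NR4A2, at 0.688. NR4A3 had an r above 0 with 5 of the 16 genes, PPARGC1A and PDE4D (0.481) being highest.

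Of 14 listed partners and regulators of NR4A proteins, 12 were tested. RXRA, the retinoid X receptor that pairs with NR4A1 and NR4A2 (log2FC 0.92, standard error 0.35), and the coactivator NCOA2 (0.33, 0.13) were higher in low IMF pigs at an unadjusted p of 0.05 or less, against 5.38% of all genes, and 0 were higher in high IMF pigs, against 5.04%. The kinase RPS6KA1 had -0.41 (0.38), which turned to 0.14 without pig 6. The list median was 0.17. With the libraries of matching sex label 1 was higher in low IMF pigs (1.86% of all genes; list median 0.02) and with the GC slope as a covariate 2 (2.05%; list median 0.04). RXRA had an r of -0.0786, 0.408 and 0.0754 with NR4A1, NR4A2 and NR4A3. The list mean had an r of 0.669 with NR4A1 (exact permutation p = 0.0323; adjusted 0.266) and a rho of 0.622 (exact permutation p = 0.0518; adjusted 0.244), and r was 0.618 without pigs 4 and 7.

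Genes of muscle metabolism that respond to NR4A1 or NR4A3 in other systems were listed as well, and 14 of 16 were tested. At an unadjusted p of 0.05 or less 4 were higher in low IMF pigs, against 5.38% of all genes, and 0 in high IMF pigs, against 5.04%, with a median log2FC of 0.19. They were the uncoupling protein UCP3 (1.40, standard error 0.54, and 0.70 without pig 12), the phosphatidate phosphatase LPIN1 (0.71, 0.20), the AMPK subunit PRKAG3 (0.38, 0.17) and the glycolytic enzyme PFKM (0.25, 0.11), and PDK4, which restrains pyruvate oxidation, had 0.49 (0.39; 0.29 without pig 1). With the libraries of matching sex label 3 were higher in low IMF pigs (1.86% of all genes) and with the GC slope as a covariate 1 (2.05%).

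With NR4A3, 11 of the 14 metabolic genes had a within-group r above 0 (median 0.285). The glucose transporter SLC2A4 was highest at 0.692, although its own log2FC was -0.06 (0.16; 0.01 without pig 10), and PRKAG3 was lowest at -0.633. The list mean had an r of 0.569 with NR4A3 (exact permutation p = 0.0782; adjusted 0.43) and a rho of 0.42 (exact permutation p = 0.2; adjusted 0.544), and r without pigs 4 and 7 was 0.727. Without pig 7 alone r was 0.276, and over the libraries of matching sex label 0.152. In the low IMF group its r was 0.896 with NR4A3 and -0.834 with NR4A2, and in the high IMF group -0.116 and 0.694, a difference that was not tested.

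**Figure D5:**
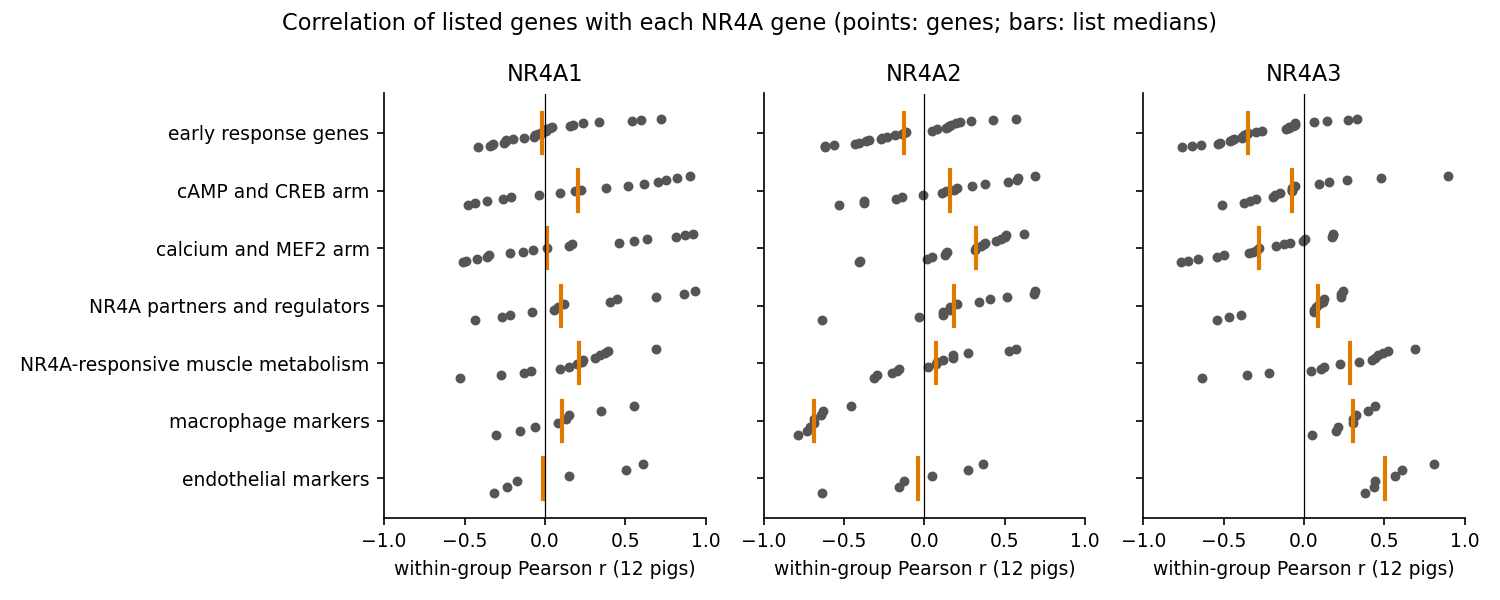
Within-group Pearson r over 12 pigs of the genes of 7 lists with NR4A1, NR4A2 and NR4A3; each point is a gene and orange bars are list medians. With NR4A3, early response genes lie mostly below 0 and all 6 endothelial and all 8 macrophage markers above 0; with NR4A2, all 8 macrophage markers lie below 0.

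Marker lists of other cells were set beside the members, and none of their relations passed after adjustment. All 8 macrophage markers were tested and all 8 had a within-group r below 0 with NR4A2, from -0.788 for C1QB to -0.454 for CSF1R. This side was shared: all 7 adipocyte markers tested and 7 of 8 fibro-adipogenic markers also had an r below 0 with NR4A2, with medians of -0.32 and -0.465 against -0.687 for the macrophage markers. The macrophage markers summed to 79.68 to 184.6 CPM in high and 88.95 to 159.6 CPM in low IMF pigs, with no marker at 0. The macrophage list mean had an r of -0.729 with NR4A2 (exact permutation p = 0.0117; adjusted over 33 relations 0.158) and a rho of -0.664 (exact permutation p = 0.03; adjusted 0.204), and r was -0.459 without pigs 6 and 7. Over the libraries of matching sex label it was -0.697.

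All 6 endothelial markers tested, of 8 listed, had an r above 0 with NR4A3, from 0.378 for TIE1 to 0.811 for TEK, the angiopoietin receptor. So did all 8 macrophage, all 5 smooth muscle and all 5 skeletal muscle markers tested, with medians of 0.304, 0.423 and 0.343 against 0.505 for the endothelial markers. The endothelial markers summed to 103.7 to 142.5 CPM in high and 108.6 to 175.6 CPM in low IMF pigs. The list mean had an r of 0.77 with NR4A3 (exact permutation p = 0.00617; adjusted 0.158) and a rho of 0.832 (exact permutation p = 0.00337; adjusted 0.111). It was 0.714 in the high IMF group, 0.819 in the low IMF group, 0.754 without pigs 1 and 6 and 0.874 over the libraries of matching sex label. The part of these cells in the levels of NR4A2 and NR4A3 was not tested.

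Adipocyte markers, 7 of 8 tested, summed to 282.2 to 394.1 CPM in high and 152.1 to 568.0 CPM in low IMF pigs. PLIN4 alone had a mean of 254.0 CPM in high and 283.3 CPM in low IMF pigs. Of the 7 markers 5 had a log2FC above 0, and the list median was 0.14. None had an unadjusted p of 0.05 or less in edgeR, against 5.38% (low) and 5.04% (high) of all genes. With the libraries of matching sex label 1 was higher in low IMF pigs (1.86% of all genes) and 0 in high (2.19%), and the list median was 0.67. With the GC slope as a covariate 0 were in either direction (2.05% and 2.09%), and the median was 0.41. As a list the adipocyte markers were not higher in pigs labelled high IMF, and the reason was not tested. The adipocyte list mean had an r of -0.106, -0.294 and -0.0805 with NR4A1, NR4A2 and NR4A3. Fibro-adipogenic markers, 8 of 8 tested, had 0.175, -0.46 and 0.41, smooth muscle markers, 5 of 5 tested, -0.114, -0.144 and 0.506, and skeletal muscle markers 0.227, 0.278 and 0.334. Of these 12 relations none had an adjusted exact permutation p for r under 0.478, and the lowest for rho was 0.177, for smooth muscle markers and NR4A3.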

How the data were processed

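Polyadenylated RNA of 12 pigs was sequenced from stranded libraries as paired reads of 100 bases, 2 libraries a lane, the lane of each pig not being given in the sources used here. The authors trimmed reads (Trimmomatic), aligned them to Sscrofa11.1 (HISAT2), assembled known transcripts (StringTie) and counted reads per Ensembl gene (HTSeq). The deposited values are raw counts, and 0 columns were left unused. In every pig their total exceeded the input reads that the study lists, so a count does not stand for 1 input read. How the excess arose was not stated in the sources used here. Groups followed the labels. Counts were filtered (filterByExpr), scaled by TMM and tested by quasi-likelihood in edgeR 4.0.16 (limma 3.58.1, DESeq2 1.42.0, R 4.3.3), with Benjamini-Hochberg adjustment over 14262 genes; 5539 genes had no count. Fold changes are low over high IMF. Correlations used log2 CPM (prior count 2) less group means, with exact permutation of pigs within groups (Python 3.11.15, numpy 2.4.6).

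The members and gene lists were chosen with earlier results of these data known. Named were the 3 members, per list at most the 4 tested genes with the largest log2FC in size (6 for early response genes) plus those a sentence on the members turned on, and per member the 5 highest and 3 lowest correlations. A gene that this rule names is not reported here. Symbols came from a table of Ensembl names, matching 11837 of the tested genes; listed genes without a match were not analysed here. List means, library measures, the GC slope the fit without libraries whose sex label did not match and the listed genes' log2FC without 1 pig were added after the values were seen. Loci, windows and sequences were read from RefSeq on Sscrofa11.1. Pigs were separate animals. Library pairs differed far beyond counting noise (smallest chi-square per degree of freedom 191), and the script was tested on simulated data.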

Additional observations from a re-analysis of the deposited data

Results flagged for a closer look

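None of the 3 NR4A genes held a pig far from the others of its group by Dixon's 95% criterion. Among 54 groups of 6 pigs examined, 5 were flagged, where chance flags about 1 in 20. EGR1 was at 234 CPM in high IMF pig 6, the next pig being at 65.8 CPM, and its log2FC of -1.57 was -0.69 without that pig. EGR2 was at 8.86 CPM in the same pig, with 4.1 CPM next, and RPS6KA1 at 6.99 CPM, with 2.09 CPM next. Without pig 6 the log2FC of EGR2 moved from -1.02 to -0.64 and that of RPS6KA1 from -0.41 to 0.14. Pig 6 also had the lowest NR4A2 of all, 7.215 CPM. NCOA2 was at 27.1 CPM in low IMF pig 8, with 21.1 CPM next. UCP3 was at 56.2 CPM in low IMF pig 12, with 21.3 CPM next; its log2FC of 1.40 was 0.70 without that pig. Pig 12 had the second highest NR4A3.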

How the results depend on the processing

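The log2FC of NR4A3 kept its sign under all alternatives run, from 0.93 (limma-voom) to 1.15 (pigs of matching sex label), and from 0.71 to 1.29 when 1 pig was left out. That of NR4A1 ran from -0.02 to 0.25 without 1 pig, was -0.48 in pigs of matching sex label and -0.39 with the GC slope as a covariate. That of NR4A2 ran from -0.65 to 0.03 without 1 pig. No gene was called by edgeR or limma-voom on 12 pigs, and 57 by DESeq2; without 1 pig the count was 0 to 1. Genes at an unadjusted p of 0.05 or less ran from 1046 to 2060 without 1 pig, were 607 in pigs of matching sex label and 591 with the GC slope. Causes were not tested. Without 1 pig, r ran from -0.0925 to 0.384 (NR4A1 and NR4A2), 0.00775 to 0.355 (NR4A1 and NR4A3) and -0.707 to -0.297 (NR4A2 and NR4A3), with adjusted exact permutation p of at least 0.0935. In pigs of matching sex label r of NR4A2 and NR4A3 reversed to 0.103. With age, r ran from -0.13 to 0.202 (NR4A1), -0.201 to 0.307 (NR4A2) and -0.572 to 0.278 (NR4A3) without 1 pig; for NR4A3 rho was -0.124, and r in pigs of matching sex label -0.716 (adjusted permutation p = 0.375, n = 6). No paired analysis was possible because the pigs of the groups share no replicate numbers. With 6 pigs a group and at least 910 counts of each NR4A gene in a pig, the spread between pigs limits the precision.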
